A study of Gallus gallus with 9 samples.

Results

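Preadipocytes are the precursors of fat cells, and 20(S)-hydroxycholesterol (20(S)) is an oxysterol, a cholesterol molecule that carries an additional hydroxyl group. The account here concerns 6 of 9 arrays of hen preadipocytes, taken as 2 sets of 3 arrays that cut across the labelled treatments. The first set, called the replicate 3 arrays, holds the arrays labelled control 3, DMIOA 3 and DMIOA+20(S) 3. The second set, called the comparison arrays, holds the arrays labelled DMIOA 2, DMIOA+20(S) 1 and DMIOA+20(S) 2. Both sets were chosen by the measured values on these arrays, together with the direction of the differences that the study lists between cells treated with DMIOA and with DMIOA+20(S), and the grouping is therefore inferred and is not given by the array titles. No treatment is read into either set. The arrays labelled control 1, control 2 and DMIOA 1 belong to neither set and are called the remaining arrays.

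The cells came from the abdominal fat of 3 Lohman laying hens at 19 wk of age and were cultured for 96 hr in medium with fetal bovine serum. Arrays labelled control are from cells with no added agent. DMIOA stands for 500 nM dexamethasone, a synthetic glucocorticoid, 0.5 mM 3-isobutyl-1-methylxanthine, an inhibitor of cyclic AMP breakdown, insulin at 20 μg/mL and the fatty acid oleic acid at 300 μM, and DMIOA+20(S) is the same mixture with 20(S) at 5 μM. Each label has 3 arrays, which their titles and the study's methods call biological replicates. However, no label ties an array to a hen, so the p-values refer to the spread among these arrays, which may be technical. The titles of all 3 replicate 3 arrays are worded differently from the titles of replicates 1 and 2, and their source is entered as adipose tissue in place of isolated preadipocytes. A batch effect is therefore possible, and a batch and whatever else separates the sets cannot be told apart here, because every array of one set has this wording and no array of the other has it.

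Cholesterol is made from acetyl-CoA through mevalonate, isoprenoid units, squalene and lanosterol. In mammals, the enzymes of this route and several sterol carriers share a transcription factor, SREBP2, which the proteins INSIG1 and INSIG2 hold in the endoplasmic reticulum when sterols are plentiful, and oxysterols act on that step. NF-kB is a family of transcription factors that answers interleukin-1 and other inflammatory signals and switches on chemokines as well as its own inhibitors. Cytochromes P450, glutathione transferases and glucuronosyltransferases modify lipophilic compounds, steroids among them, for excretion.

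Each array gives 1 log2 value per probe set, and 38439 probe sets were compared. Because the sets were chosen by these values, differences between them are given as a description, with no mean and no test. The measure is the gap, the distance on the log2 scale between the lowest array of the higher set and the highest array of the lower set, and it is negative where the replicate 3 arrays were the lower ones. A probe set is called set apart where the gap was at least 1, that is, where every array of one set lay at least 2-fold above every array of the other. The replicate 3 arrays were higher by such a gap for 84 probe sets (0.219% of all) and lower for 48 (0.125%). With any gap above 0, the sets did not overlap for 2998 probe sets (7.8%) with the replicate 3 arrays higher and for 2588 (6.73%) with these arrays lower. The 84 probe sets included 14 without a gene name and covered 59 named genes, and the 48 included 7 without a name and covered 34 genes. Of the 59 genes 35 had several probe sets and 9 had at least 2 of them set apart in the same direction, while of the 34 genes these numbers were 19 and 6, and no gene had a probe set apart in the opposite direction. With 1 probe set per gene, 53 of 13083 genes were higher (0.405%) and 32 lower (0.245%), and the sets did not overlap for 1457 genes higher (11.1%) and 1230 lower (9.4%). Just inside the limit lay ASL1 (gap -1.01), COL4A3BP (1.02) and RIPK3 (1.02), and just outside it were probe sets of AHNAK2, SLC13A3 and RIPK2 (0.994, 0.994 and 0.998), of which AHNAK2 had another probe set apart (gap 1.13).

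**Figure D1:**
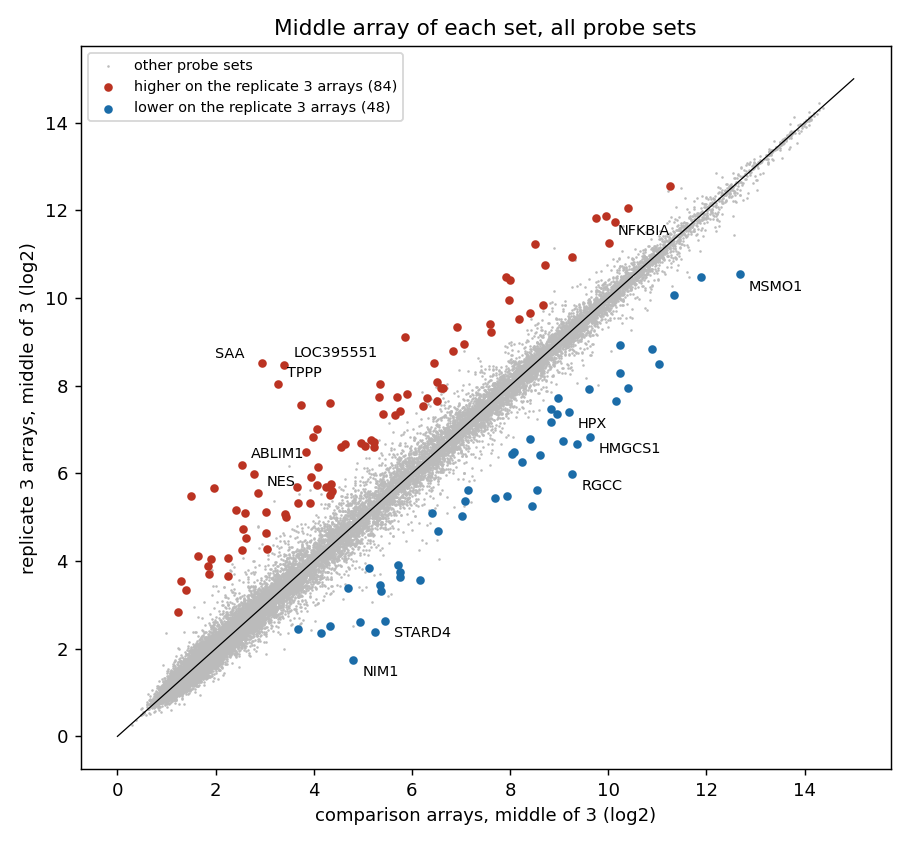
Log2 value of the middle of the 3 replicate 3 arrays (vertical axis) against the middle of the 3 comparison arrays (horizontal axis) for all 38439 probe sets, with a diagonal line where both are equal. The 84 red points are set apart with the replicate 3 arrays higher and the 48 blue points with these arrays lower, and the remaining probe sets (grey) lie along the diagonal.

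In the values below, the replicate 3 arrays are given in the order control 3, DMIOA 3, DMIOA+20(S) 3 and the comparison arrays in the order DMIOA 2, DMIOA+20(S) 1, DMIOA+20(S) 2. Unless stated, a gene's values are of 1 probe set. For most set-apart genes with several probe sets only 1 of them was set apart. The counts for each gene list are to be read beside the shares over all 13083 genes. The study's listed directions entered the choice of the sets, so no list count is independent evidence of a direction. Of these, 0.405% were set apart as higher and 0.245% as lower, and 11.1% and 9.4% did not overlap. In a short list, 0 set apart is thus close to these shares. By a gap of at least 1, cholesterol synthesis was the gene list with the most members lower on the replicate 3 arrays, whereas by any gap above 0 the extracellular matrix list had more (20 of 36 against 16 of 21). Of its 21 measured genes 12 were set apart as lower and 0 as higher, 16 did not overlap, and the middle replicate 3 array lay a median of -1.60 from the middle comparison array, against 0.00 over all 13083 genes. The study's own list of differences gave the direction for several of these genes, and that list entered the choice of the sets, so the count is no independent evidence of a direction.

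At the head of the route, HMGCS1, which joins acetoacetyl-CoA and acetyl-CoA to HMG-CoA, read 6.83, 6.98 and 6.66 on the replicate 3 arrays and 9.62, 9.64 and 9.39 on the comparison arrays, a gap of -2.41. AACS, which activates acetoacetate for lipid synthesis, read 6.22, 6.33 and 6.25 against 8.24, 8.29 and 8.22 (gap -1.90). Both genes thus had their whole replicate 3 set below the whole comparison set. Of the next enzymes, IDI2, an isopentenyl diphosphate isomerase, had 3 probe sets apart, with gaps of -2.56, -2.46 and -2.39, and the study's tables give the first and second of these to the related gene IDI1. FDPS, which makes farnesyl diphosphate, read 5.56, 5.45 and 5.34 against 7.82, 7.69 and 7.49 (gap -1.93). In contrast, the kinases MVK and PMVK and the decarboxylase MVD, which act before IDI2, had gaps of -0.26, 0.00 and 0.00, and they gave dim signals of 2.15 to 4.23 on the 6 arrays.

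From squalene onwards, SQLE, which adds the oxygen to squalene, read 8.56, 8.86 and 8.83 on the replicate 3 arrays and 10.89, 10.96 and 10.90 on the comparison arrays for the probe set of highest mean. LSS, which closes the ring to lanosterol, read 6.10, 5.62 and 5.33 against 8.58, 8.55 and 8.40 (gap -2.30). MSMO1, a methyl sterol oxidase, read 10.54, 10.49 and 10.57 against 12.68, 12.73 and 12.62 (gap -2.05). These 3 genes had no overlap between the sets, and the spread within a set was widest for LSS on the replicate 3 arrays. NSDHL, a sterol dehydrogenase of the same demethylation steps, read 5.52, 5.47 and 5.03 against 8.03, 7.94 and 7.69 (gap -2.17). DHCR7, a late reductase of the route, had a smaller gap, with 10.08, 10.07 and 10.03 against 11.34, 11.43 and 11.12 (gap -1.04). The gap of HSD17B7, a keto-sterol reductase, was -1.30. FDFT1, which makes squalene, did not overlap but had a gap of -0.90, while LBR and GGPS1 overlapped, and CYP51A1 stayed near the array floor.

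The remaining arrays took another place than either set for most of these genes. Over all 13083 genes, the replicate 3 arrays were above all remaining arrays for 21.9% and below them for 21.7%, and the comparison arrays for 20.7% and 22.5%. For 9 of the 12 genes set apart, all replicate 3 arrays were below all remaining arrays, for 2 they were above and for 1 they overlapped. The comparison arrays were above all remaining arrays for 10 of the 12 and overlapped them for 2. The 12 were picked for replicate 3 values below the comparison values, which favours such counts. Of all 21 genes of the list, the replicate 3 arrays were below the remaining arrays for 13 and above for 3. The comparison arrays were above them for 13 and below for 1. HMGCS1, for example, read 8.93, 8.55 and 8.97 on control 1, control 2 and DMIOA 1, between both sets. HSD17B7 read 6.76, 6.30 and 6.56 on the remaining arrays, below the replicate 3 arrays at 7.36, 7.36 and 7.16, so that its lower values on the replicate 3 arrays were low only beside the comparison arrays.

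**Figure D2:**
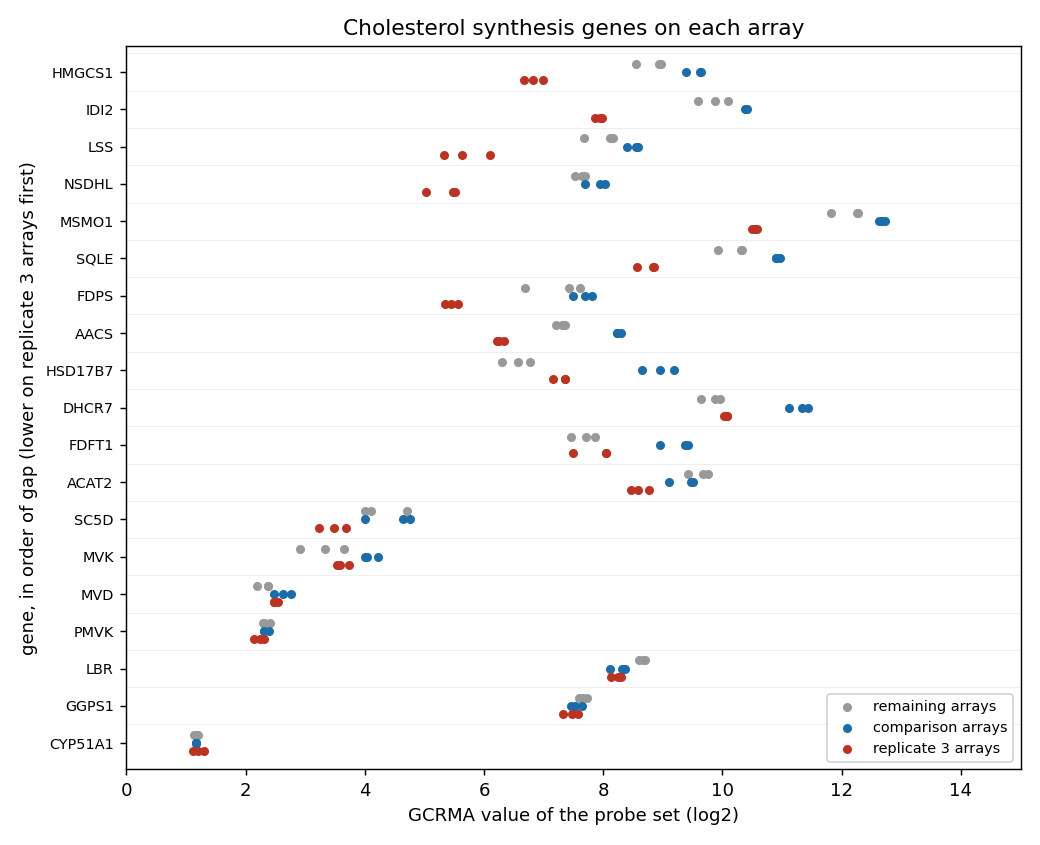
Log2 value of 19 of the 21 cholesterol synthesis genes (1 probe set per gene, rows) on each array, with the 3 remaining arrays in grey, the 3 comparison arrays in blue and the 3 replicate 3 arrays in red. For 10 of the plotted genes, from HMGCS1 to DHCR7, the red points lie at least 1 below the blue points, and for 8 of them the red points also lie below all grey points.

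Among 22 genes of sterol sensing and transport, 2 were lower by a gap of at least 1, 2 were higher and 13 overlapped, with a median difference between middle arrays of -0.03. INSIG1, the retention protein of the endoplasmic reticulum, read 8.64, 8.51 and 8.45 on the replicate 3 arrays and 11.03, 11.03 and 10.99 on the comparison arrays, and another of its probe sets had a gap of -2.30. STARD4, a cytosolic cholesterol carrier, read 6.60, 6.74 and 6.78 against 9.08, 9.14 and 9.07, and its other probe set apart had a gap of -2.38. Both genes therefore followed the cholesterol enzymes, in each case with a pair of probe sets. MYLIP, a ubiquitin ligase that marks lipoprotein receptors for breakdown and is a target of the liver X receptors in mammals, was higher on the replicate 3 arrays, at 8.69, 8.78 and 8.82 against 6.81, 6.97 and 6.84 (gap 1.73). VLDLR, a lipoprotein receptor, read 5.64, 5.50 and 5.42 against 4.33, 4.21 and 4.33 (gap 1.09). ABCA1 and ABCG1, sterol exporters that are also liver X receptor targets, overlapped between the sets and were dim, with ABCA1 between 1.56 and 2.18 on the replicate 3 arrays and between 1.60 and 1.77 on the comparison arrays. The transcription factors SREBF1 and SREBF2, the sensor SCAP and the liver X receptor NR1H3 overlapped as well. INSIG2 had a gap of 0.24 in the higher direction, opposite to INSIG1.

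The hedgehog pathway, which controls differentiation of mesenchymal cells and whose transducer SMO binds 20(S) in mammalian cells, had 0 of 12 measured genes set apart and 10 that overlapped. SMO itself read 6.89, 7.02 and 6.63 on the replicate 3 arrays and 7.24, 7.23 and 6.78 on the comparison arrays. PTCH1, receptor and target of the pathway, read 5.59, 5.88 and 6.08 against 5.44, 5.41 and 5.33, a gap of 0.16. The median difference over the 12 genes was -0.06.

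On the higher side, the probe set with the widest gap was that of SAA, serum amyloid A, an acute-phase protein, at 8.51, 9.29 and 8.30 on the replicate 3 arrays and 2.95, 2.65 and 3.24 on the comparison arrays (gap 5.06), and the identity of this probe set is uncertain, because the study's tables name it HPS5. LOC395551, for which the RefSeq gene table lists the chemokine name MIP-1beta as a synonym, read 8.48, 8.97 and 8.05 against 3.51, 2.93 and 3.40 (gap 4.54). For SAA the remaining arrays, at 3.12, 3.15 and 3.11, were as low as the comparison arrays. For LOC395551 they lay between both sets, at 5.32, 5.27 and 5.27.

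Of 33 measured genes of the NF-kB and interleukin-1 response, 10 were set apart as higher on the replicate 3 arrays and 0 as lower, 7 overlapped, and the median difference between middle arrays was 0.79. Among the inhibitors that NF-kB itself switches on, TNFAIP3, a ubiquitin-editing enzyme, read 7.53, 8.10 and 7.61 on the replicate 3 arrays and 4.66, 3.96 and 4.33 on the comparison arrays (gap 2.88). NFKBIA, which holds NF-kB in the cytoplasm, read 11.19, 11.44 and 11.27 against 10.01, 10.14 and 9.92 (gap 1.04). NFKBIZ, a nuclear regulator of the same family, read 7.68, 8.07 and 7.74 against 5.73, 5.66 and 5.70 (gap 1.95). All 3 had every replicate 3 array at least 2-fold above every comparison array, and in each the array labelled DMIOA 3 was the highest of the 6. TNIP2, a partner of TNFAIP3, had a gap of 1.27.

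Of the chemokines, CCL20, which attracts lymphocytes and dendritic cells, read 5.47, 6.81 and 4.83 against 1.40, 1.93 and 1.49 (gap 2.90). IL8L1, a chicken counterpart of interleukin 8, read 4.18, 5.30 and 4.25 against 2.56, 2.53 and 2.35 (gap 1.62). CX3CL1 and CCL4 had gaps of 1.81 and 1.51. The array labelled DMIOA 3 was the highest of the 6 for these 4 genes too, by 1.05 to 1.41 log2 units over the next array for CX3CL1, IL8L1 and CCL20. IL8L2 did not overlap but had a gap of 0.84, at 10.60, 11.85 and 10.86 against 9.32, 9.76 and 8.68. VCAM1, an adhesion molecule for leukocytes, read 4.58, 4.74 and 5.33 against 2.57, 1.95 and 2.99 (gap 1.60). ACOD1, the enzyme that makes itaconate in activated macrophages of mammals, read 5.66, 6.14 and 5.41 against 2.15, 1.96 and 1.56 (gap 3.26).

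Of the cytokines themselves, IL1B read 1.94, 3.46 and 2.39 on the replicate 3 arrays and 1.35, 1.15 and 1.44 on the comparison arrays (gap 0.50), and IL6 read 4.003, 5.14 and 3.88 against 3.55, 2.78 and 2.75 (gap 0.33). Neither was set apart. For IL6 all 6 arrays lay below the remaining arrays, which read 7.52, 6.58 and 7.48. The subunits NFKB1 and REL had gaps of 0.19 and 0.51, whereas RELA and PTGS2, which makes prostaglandins, overlapped. Beside the remaining arrays, all 10 set-apart genes of this list were higher on the replicate 3 arrays, with no overlap. They were picked for high values on these arrays, which favours such a count, and 61 of all 84 higher probe sets did the same. Of all 33 genes of the list, the replicate 3 arrays were above the remaining arrays for 24 and below for 3. Over all 13083 genes, these shares were 21.9% and 21.7%. The study's own list gave the direction for several of the 10 genes and entered the choice of the sets. The counts for this list are therefore no independent evidence of a direction. The comparison arrays overlapped the remaining arrays for 6 of the 10, were above them for 3 and below them for 1.

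**Figure D3:**
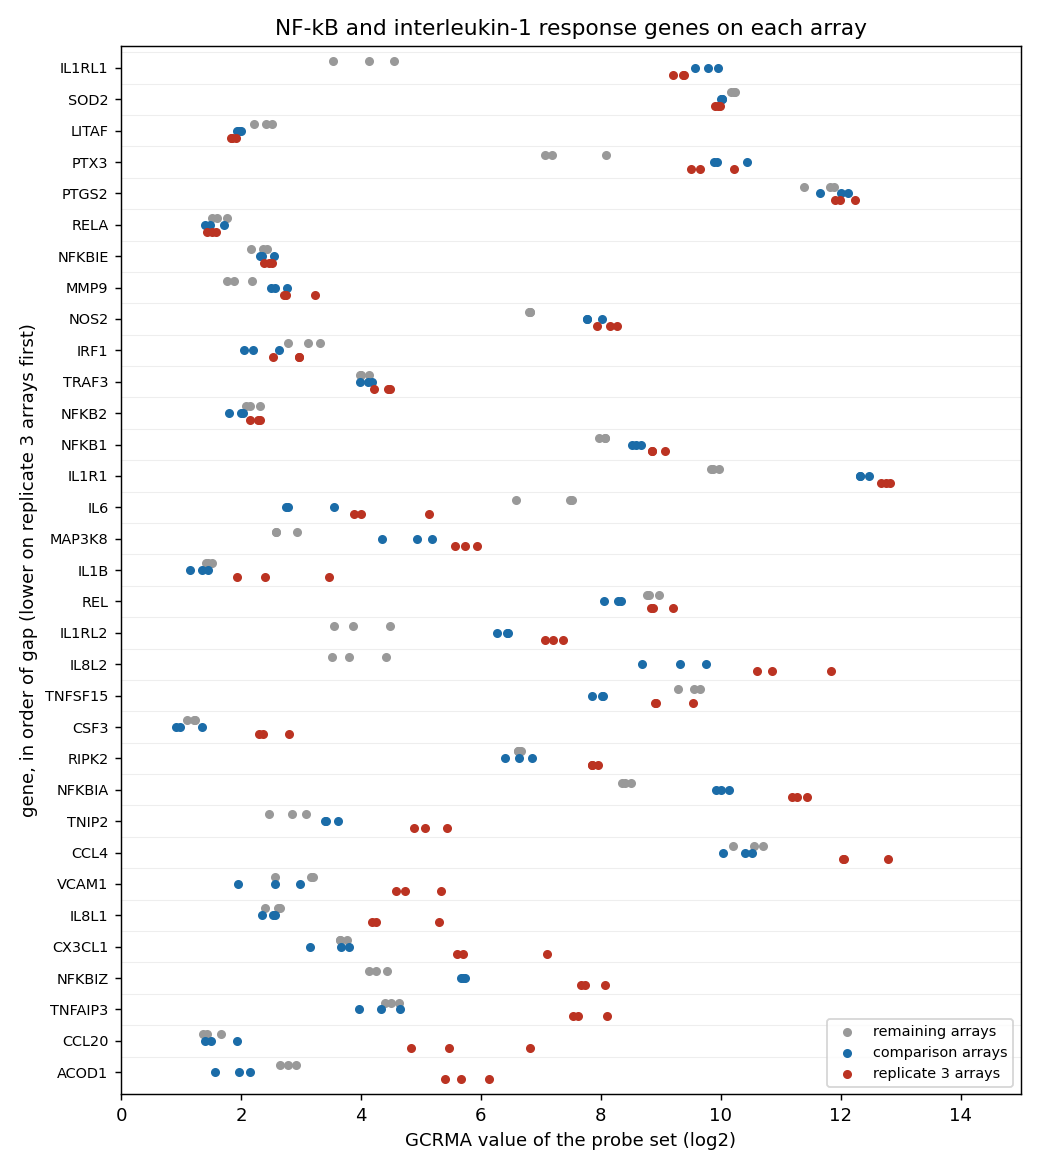
Log2 value of 33 genes of the NF-kB and interleukin-1 response (1 probe set per gene, rows) on each array, with the 3 remaining arrays in grey, the 3 comparison arrays in blue and the 3 replicate 3 arrays in red. From NFKBIA to ACOD1 the red points lie at least 1 above the blue points, 10 genes in all, while for RELA, PTGS2 and NOS2 they overlap.

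No marker of another cell type was set apart. Over all 13083 genes only 0.405% were set apart as higher and 0.245% as lower, so 0 in lists this short says little. The sets overlapped for 10396 of the 13083 genes. Of 17 macrophage and leukocyte markers 0 were set apart and 16 overlapped, 7 of the 17 were under 4 on all 9 arrays, among them TLR4, CYBB, MRC1 and MARCO, and the summed level of the list was 8.18 to 8.58 (log2) on the replicate 3 arrays, 8.22 to 8.34 on the comparison arrays and 9.11 to 9.43 on the remaining arrays. All 7 T cell markers, CD3E and CD4 among them, were under 4 on every array, as were all 3 erythroid markers. Of the endothelial markers 6 of 8 were under 4 throughout, VWF and KDR among them, and the summed level was 6.10 to 6.79 on the replicate 3 arrays against 5.68 to 6.04 on the comparison arrays. For 3 mesothelial markers it was 7.18 to 7.54 against 7.81 to 7.98, and for 7 skeletal muscle markers 5.28 to 5.54 against 4.91 to 5.24, and the part of these shifts in the other results was not tested. Preadipocyte and mesenchymal markers had a summed level of 16.37 to 16.42 on the replicate 3 arrays and 16.47 to 16.53 on the comparison arrays, 11 of 13 were at least 4 on some array, and DLK1 and ENG were under 4 on every array. Without overlap 5 of the 13 were lower and 1 higher on the replicate 3 arrays, beside 9.4% and 11.1% of all genes, and 7 overlapped. Their differences between middle arrays ran from -0.46 to 1.61, which the summed level does not show.

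Immediate-early genes and feedback genes of the ERK kinase pathway had 6 of 22 members set apart as higher and 0 as lower, with 6 that overlapped and a median difference of 0.81. ETS1, a transcription factor, read 10.76, 11.45 and 10.75 on the replicate 3 arrays and 8.70, 8.70 and 8.34 on the comparison arrays (gap 2.05). DUSP6, a phosphatase that switches ERK off, read 7.33, 7.87 and 7.09 against 5.65, 6.01 and 5.50 (gap 1.07). KLF2, a zinc finger factor that restrains preadipocyte differentiation in mice, read 8.95, 9.24 and 8.86 against 7.06, 6.89 and 7.46 (gap 1.39). DMIOA 3 was again the highest array for these 3 genes. ETV1, ETV5 and PIM3 had gaps of 1.20, 1.14 and 1.03, but only 1 of 2 probe sets of ETV1 and 1 of 5 of ETV5 was set apart. The probe set of EGR1 with the highest mean had a gap of 0.92 and another of its probe sets one of 1.24. For KLF2 and DUSP6 the remaining arrays took another place than for the set-apart NF-kB genes: KLF2 read 10.72, 10.50 and 10.79 on them, above both sets, and DUSP6 read 8.22, 8.31 and 8.33. Of the 6 set-apart genes the replicate 3 arrays were below the remaining arrays for 4 and above for 2, and the comparison arrays were below them for 5. The 6 were picked for a gap between the sets, which favours such counts. Of all 22 genes of the list, the replicate 3 arrays were above the remaining arrays for 9 and below for 9. The comparison arrays were above them for 5 and below for 11, beside 20.7% to 22.5% of all genes on either side.

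Of 28 genes of xenobiotic metabolism and oxidative stress, 9 were set apart as higher and 0 as lower, 7 overlapped, and the median difference was 0.97. Without overlap 20 were higher and 1 lower. The study lists GSTA3 as over-expressed with DMIOA+20(S), and its directions entered the choice of the sets. The counts for this list are therefore no independent evidence of a direction either. CYP3A5, a cytochrome P450 that hydroxylates steroids and drugs, read 5.59, 7.23 and 5.98 on the replicate 3 arrays and 2.81, 2.78 and 2.71 on the comparison arrays (gap 2.78), and its identity is uncertain, because the study's tables name the probe set CYP3A7. CYP1B1, a P450 of steroid and aromatic hydrocarbon metabolism, read 3.76, 4.12 and 4.84 against 1.44, 1.65 and 1.91 (gap 1.85). GSTA3, a glutathione transferase, read 7.75, 8.20 and 7.74 against 5.64, 5.26 and 5.32 (gap 2.09). Both P450 genes thus lay near the array floor on all comparison arrays, which GSTA3 did not. UGT1A1, a glucuronosyltransferase, and the exporter ABCC3 had gaps of 1.56 and 1.06. HSPB9, a small heat shock protein, read 11.66, 12.38 and 11.83 against 9.74, 9.77 and 9.76 (gap 1.89). SQSTM1, an adaptor of selective autophagy and a target of the antioxidant factor NRF2 in mammals, read 11.57, 11.93 and 11.86 against 9.92, 9.95 and 10.27 (gap 1.29) and had 3 probe sets apart. GCLM, NQO1 and TXNRD1, which are also among the NRF2 targets, had gaps of 0.27, 0.15 and 0.00, and HMOX1, heme oxygenase, had one of -0.15. The list was not divided by NRF2 targets, and an NRF2 response was not tested.

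Of 31 measured adipocyte and triglyceride genes 1 was set apart, 15 overlapped, and the median difference was -0.20. Without overlap 13 were lower and 3 higher on the replicate 3 arrays, beside 9.4% and 11.1% of all genes. Beside the remaining arrays, the replicate 3 arrays were higher without overlap for 14 of the 31 and lower for 7, and the comparison arrays were higher for 17 and lower for 5, beside the 20.7% to 22.5% of all genes on either side given above. FADS2, a fatty acid desaturase, was the 1 set apart, at 7.16, 6.96 and 7.17 on the replicate 3 arrays and 8.83, 8.97 and 8.49 on the comparison arrays (gap -1.31), with 9.80, 9.44 and 9.59 on the remaining arrays. FABP4, the fatty acid binding protein of fat cells, read 13.39, 13.39 and 13.42 against 13.60, 13.69 and 13.73 (gap -0.18), with 10.04, 10.23 and 10.22 on the remaining arrays. CD36, a fatty acid receptor, had a gap of -0.79, at 7.93, 7.76 and 7.87 against 8.72, 8.76 and 8.85, with 3.36 to 3.71 on the remaining arrays. ENPP2, which makes lysophosphatidic acid, read 9.56, 9.26 and 9.66 against 10.45, 10.50 and 10.38, and 1.92 to 2.42 on the remaining arrays. For FABP4, CD36 and ENPP2 the 6 arrays thus lay far above the remaining arrays, the array labelled control 3 included, with the replicate 3 arrays a little lower. PPARG, the main transcription factor of fat cells, overlapped. Of 16 fatty acid oxidation genes 0 were set apart and 10 overlapped, with a median difference of 0.03, and PDK4, a kinase that spares glucose, read 11.10, 10.88 and 10.97 against 11.05, 11.09 and 11.14.

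Of 14 osteogenic genes 1 was set apart, MATN3, a matrix protein of cartilage, at 4.73, 5.02 and 5.11 on the replicate 3 arrays and 7.03, 7.03 and 6.80 on the comparison arrays (gap -1.69), and 1.54 to 1.79 on the remaining arrays. RUNX2, the main bone transcription factor, overlapped at 6.09, 6.01 and 5.56 against 6.06, 6.18 and 5.47. Extracellular matrix genes had 1 of 36 set apart, again MATN3, with 20 lower and 3 higher without overlap. Over all genes, 9.4% were lower and 11.1% higher without overlap. Of 27 hormone peptides and receptors 13 were lower and 5 higher without overlap. Of these, 3 were lower and 1 higher by a gap of at least 1. The 3 lower genes were AGTR2 and ACE, an angiotensin receptor and the enzyme that makes angiotensin II, and VIPR2, a receptor for vasoactive intestinal peptide, with gaps of -1.27, -1.26 and -1.12. The higher gene was CCK, the peptide cholecystokinin, at 6.82, 7.67 and 7.02 against 4.07, 4.14 and 3.59 (gap 2.68). Of 26 cell cycle genes the inhibitor CDKN2B was higher (gap 1.54), DEPDC1 lower (-1.11) and 22 overlapped. Of 27 actin and contraction genes 15 were lower and 3 higher without overlap, and the median difference was -0.24. The 1 set apart was ABLIM1, an actin-binding protein, which was higher. Only 1 of its 9 probe sets was set apart, at 6.19, 6.39 and 6.19 against 2.53, 2.77 and 1.91 (gap 3.42). Of 20 glucocorticoid and cyclic AMP response genes 1 was set apart, as lower. Without overlap 11 were higher and 3 lower, with a median difference of 0.36. Of 21 heat shock and unfolded protein response genes 1 was set apart, as higher. Without overlap 9 were higher and 1 lower, with a median difference of 0.07. Of 28 ribosomal protein genes, 25 respiratory chain genes and 12 reference genes, 0 were set apart, and their median differences were 0.01, -0.09 and -0.0027.

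Other genes with wide gaps belong to none of these lists. TPPP, which promotes tubulin polymerization, read 8.24, 7.99 and 8.04 on the replicate 3 arrays and 3.82, 3.01 and 3.27 on the comparison arrays (gap 4.17), and 7.33, 7.17 and 7.17 on the remaining arrays, so that the comparison arrays were the ones that differed most from the others. NES, the intermediate filament nestin, read 5.45, 6.71 and 5.54 against 2.85, 2.72 and 3.16, and 9.17, 9.13 and 8.73 on the remaining arrays. C10H15ORF48, whose human counterpart is a small mitochondrial protein, had 2 probe sets apart, with gaps of 3.10 and 2.59. Among the lower genes, RGCC, a regulator of the cell cycle, read 6.25, 5.99 and 5.81 against 9.27, 9.48 and 9.17 (gap -2.92), and 9.21, 9.15 and 9.12 on the remaining arrays. NIM1, a kinase of the AMPK-related family, read 1.50, 1.75 and 1.93 against 4.80, 5.02 and 4.81 (gap -2.87). WDFY4 had a gap of -2.14. AQP1, a water channel, and HPX, the heme carrier hemopexin, had gaps of -2.03 and -1.23 and, like NES, were named after their values were seen.

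Within the replicate 3 set, the array labelled DMIOA 3 was the highest of the 3 for 63 of the 84 probe sets set apart as higher, control 3 for 10 and DMIOA+20(S) 3 for 11. For the NF-kB list DMIOA 3 was the highest for 9 of 10 genes. For the immediate-early list it was the highest for 6 of 6 and for the xenobiotic list for 7 of 9. How often each array was the highest or lowest over all probe sets was not counted, so these counts have no background. Several genes gave more than 1 of the 84 probe sets. For the 48 probe sets set apart as lower, the lowest array was control 3 for 15, DMIOA 3 for 16 and DMIOA+20(S) 3 for 17. Among them, DMIOA+20(S) 3 was the lowest for 7 of the 12 cholesterol synthesis genes and DMIOA 3 for all 3 genes of the hormone list. Within the sets, the median range of the 132 set-apart probe sets was 0.36 on the comparison arrays and 0.40 on the replicate 3 arrays, and the widest was 1.48 and 2.30.

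The genes that the study names by direction in its results text were measured as 20 genes over-expressed with DMIOA alone and 20 over-expressed with DMIOA+20(S). Of the first 20, 11 were set apart as lower on the replicate 3 arrays, 19 did not overlap, and SLC6A2, a noradrenaline transporter, overlapped. Of the other 20, 8 were set apart as higher and 19 did not overlap, while CDK6, a cell cycle kinase, overlapped. The median differences between middle arrays were -1.63 and 1.39. These directions took part in the choice of the sets, so the counts describe the rule and support nothing.

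The place of the remaining arrays differed between both directions. Of the 84 probe sets higher on the replicate 3 arrays, the middle remaining array lay beyond the comparison arrays for 33, between the sets and nearer the comparison arrays for 22, nearer the replicate 3 arrays for 11, and beyond the replicate 3 arrays for 18. Of the 48 lower ones these numbers were 4, 24, 6 and 14. Over all 38439 probe sets, the replicate 3 arrays were above all remaining arrays for 16.1% and below them for 14.6%, and the comparison arrays for 15.6% and 14.9%. In terms of whole sets, the replicate 3 arrays were above all remaining arrays for 61 of the 84 and below them for 14, and the comparison arrays were below them for 39 and above for 19. For the 48 lower probe sets, the replicate 3 arrays were below all remaining arrays for 31 and above for 12. The comparison arrays were above them for 39 and below for 2. These probe sets were picked for a gap between the sets, which favours such counts beside the shares over all probe sets.

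**Figure D4:**
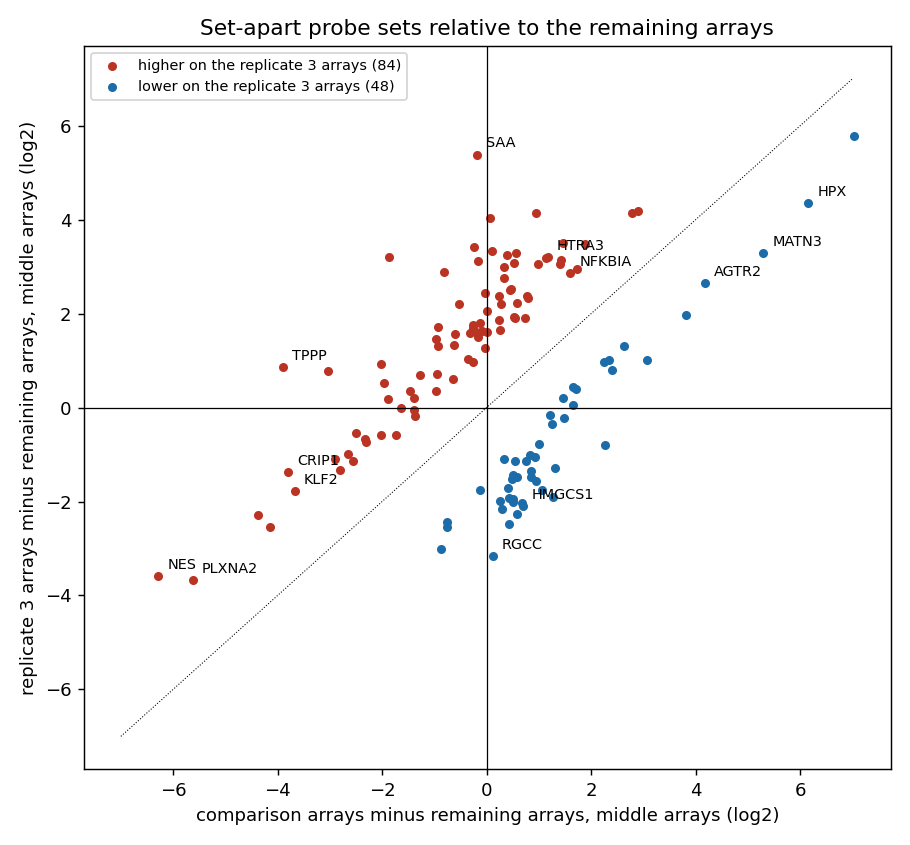
Differences in log2 value from the middle remaining array, for the middle comparison array (horizontal axis) and the middle replicate 3 array (vertical axis), over the 132 set-apart probe sets (84 red, 48 blue), with a dotted line where both are equal. SAA lies near 0 on the horizontal axis and above 5 on the vertical axis, NES and PLXNA2 lie far to the lower left, and HPX and MATN3 lie to the upper right, so that set-apart probe sets occupy all sides of the remaining arrays.

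Counting over whole arrays, DMIOA 2 and DMIOA+20(S) 1 were the closest pair of the 6, with 75 probe sets at least 2-fold apart (r = 0.9966 across probe sets, which are not independent). Pairs within the comparison set had 75 to 660 such probe sets, pairs within the replicate 3 set 121 to 634, and pairs across both sets 392 to 1317. Any of the 6 arrays and a remaining array were 2563 to 3522 apart. The ranges within and across the sets overlapped, and the closest pair across them was DMIOA+20(S) 2 and DMIOA+20(S) 3, with 392. Pairs with the same label among the 6 arrays had 392 to 981 (n = 4 pairs) and pairs with different labels 75 to 1317 (n = 11 pairs).

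**Figure D5:**
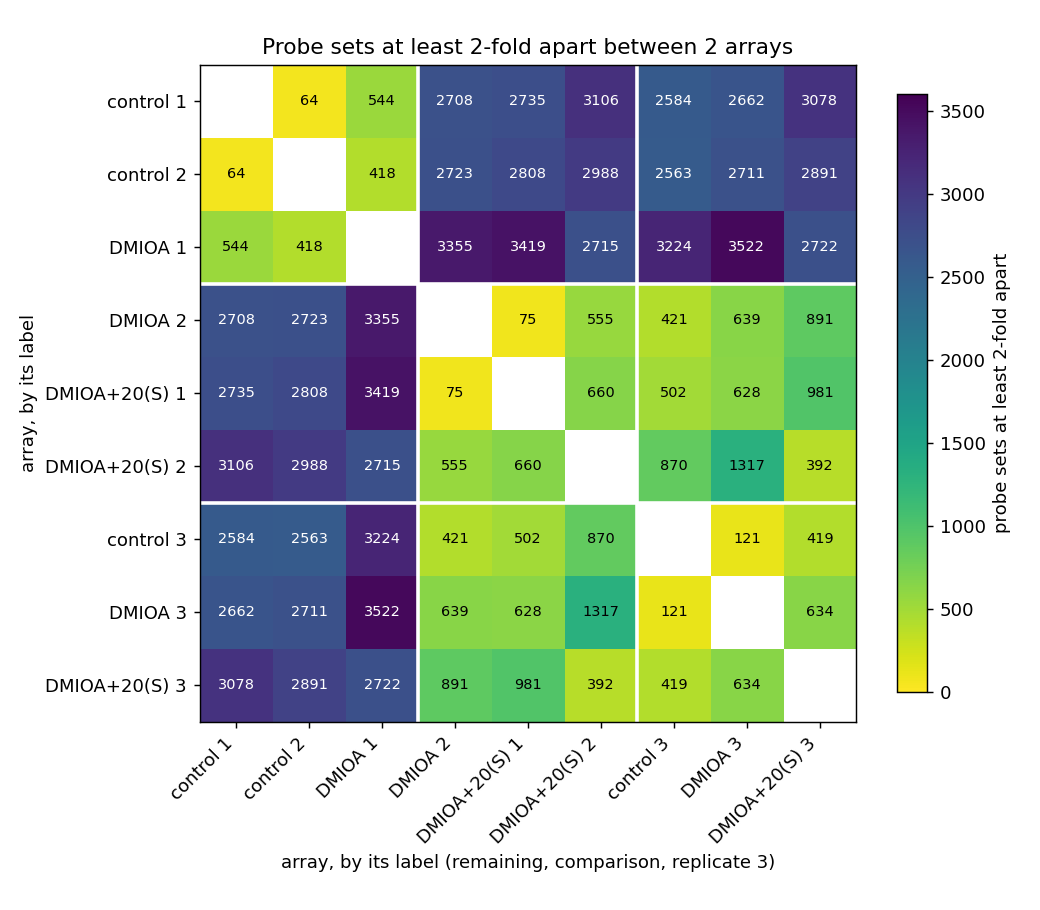
Number of probe sets at least 2-fold apart between each pair of the 9 arrays, with white lines between the remaining, comparison and replicate 3 arrays. The smallest counts among the 6 arrays compared are 75 and 121, inside the sets, and the pair of DMIOA+20(S) 2 and DMIOA+20(S) 3, across the sets, has 392.

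A second division ran across the sets and was found after the values were seen. In each set the array least correlated with the other 2 was DMIOA 1 (remaining), DMIOA+20(S) 2 (comparison) and DMIOA+20(S) 3 (replicate 3), and the deviations of these 3 arrays from their own set means correlated with each other at r = 0.714, 0.727 and 0.785 over 11562 probe sets with a mean of at least 4. Probe sets that stood at least 1 log2 unit from both others of the set in all 3 sets numbered 103, 99 of them higher and 4 lower. The values given here are of single probe sets. For COL3A1, a collagen, 1 probe set read 10.19, 12.09 and 11.29 on the 3 arrays against 8.11 to 9.77 on the other 6. The COL3A1 probe set of highest mean is another. Its difference between DMIOA+20(S) and DMIOA within sets, a fit described below, was -0.02 (standard error 0.09). P4HB, an endoplasmic reticulum foldase, read 9.73, 9.79 and 10.06 against 7.20 to 7.88. SLC40A1, an iron exporter, was lower, at 1.92, 1.97 and 2.47 against 3.05 to 4.24. None of the 103 probe sets was set apart between the sets (0 of 132). A spread of at least 1 within each set leaves little room for a gap of at least 1 between sets. This 0 is therefore close to fixed by the definitions and says little about how the divisions relate. The log2 difference between the 3' and 5' control probe sets of actin was 0.48, 1.11 and 1.34 on the 3 arrays and 1.30 to 2.63 on the other 6, and that of GAPDH was -0.01 to 0.07 against 0.23 to 0.42. The part of this difference in the results was not tested. Leaving out both DMIOA+20(S) 2 and DMIOA+20(S) 3, the number set apart was 139 higher and 105 lower, in place of 84 and 48, and leaving out DMIOA+20(S) 2 alone it was 113 higher and 86 lower. With fewer arrays to clear, the numbers can by construction only grow or stay.

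The comparison that the labels themselves make, DMIOA+20(S) against DMIOA, was tested with limma over all 38439 probe sets, first without the sets. By label over the 9 arrays, 0 were called at an adjusted p under 0.05 with at least a 2-fold difference (0%), 1099 had an unadjusted p under 0.05, and the smallest adjusted p was 0.977. If nothing differed, a share of about 0.05 of the 38439 probe sets would fall below an unadjusted p of 0.05. The unadjusted counts given here therefore do not by themselves show a difference. The methods' t-test gave 5 probe sets before and 0 after Benjamini-Hochberg adjustment. With the set of each array as a term in the fit, so that the labelled difference is taken within sets, 0 were called again (0%), 2254 had an unadjusted p under 0.05, and the smallest adjusted p was 0.619. The difference of the labelled difference between the replicate 3 set and the comparison set had 0 calls (0%), 1347 probe sets below 0.05 before adjustment, and none of its adjusted p-values was under 1. In this contrast the replicate 3 set gives 1 array per label and the comparison set 1 DMIOA array, each taken to vary like the other arrays, with 2 residual degrees of freedom. In each case the absence of calls does not show that the treatments act alike, and within the sets the arrays DMIOA+20(S) 2 and DMIOA+20(S) 3 are those that stood apart above.

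For the 132 set-apart probe sets, the labelled difference within sets ran from -0.68 to 0.53 on the log2 scale. HMGCS1 differed by -0.21 (standard error 0.14) within sets and by 0.04 (standard error 0.98) by label. INSIG1, for the probe set of highest mean, differed by -0.09 (standard error 0.13) within sets and 0.11 (standard error 0.91) by label. TNFAIP3 differed by -0.42 (standard error 0.17) within sets and -0.45 (standard error 1.35) by label, and SAA by -0.35 (standard error 0.25) and -0.39 (standard error 2.30). Because the rule chose these probe sets for a gap between sets that cut across the labels, their spread by label is wide by construction, and their labelled differences are given as a description.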

How the data were processed

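RNA of cultured hen preadipocytes was measured on Affymetrix GeneChip Chicken Genome Arrays, 3 arrays for each label. The authors computed the deposited log2 values from the scans with GCRMA in FlexArray (its version is not given in the sources used here), which corrects background, normalizes the arrays together and pulls dim probe sets toward a common floor, shrinking their differences. Array medians were 2.11 to 2.14, and no further normalization was applied. The number of arrays limits the precision.

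Of 38535 probe sets, 96 controls were left out. The platform annotation, which can be old, gave 1 symbol for 27167 of the 38439 tested, several for 178 (not named) and none for 11094, and 107 of the unnamed were named from the study's tables. Where a gene had several probe sets, that of highest mean (all 9 arrays) represented it. The fold changes and p-values in the study's tables entered no computation here, but the direction of the listed differences took part in the choice of the sets.

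The sets, the gene lists and the tests were chosen with earlier results of these data known. Genes were named if the study names them for DMIOA against DMIOA+20(S), if among the 10 with the widest gap in either direction, or as members of 25 gene lists, and others are said to be named after their values were seen. In the labelled difference no probe set was called, so none was named from it. List members not on the array were left out. For 2 cholesterol synthesis genes, counted with their list, single values are not reported here.

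For labelled differences limma 3.58.1 (lmFit, eBayes) was run in R 4.3.3 on the 9 arrays, with Benjamini-Hochberg adjustment over all probe sets. A call needed an adjusted p below 0.05 together with a log2 difference of at least 1. On simulated data of 38439 probe sets, the fit by label called 26%, 78%, 94% and 94% of 50 probe sets changed by 1, 1.5, 2 and 3 log2 units, with 3 false calls, and the fit within sets 38%, 84%, 96% and 98%, with 2. The noise was drawn separately for each array, without the deviations that arrays shared. The changed probe sets were drawn from all, dim ones with shrunken differences included. The shares may therefore not hold for bright probe sets, and they do not hold for probe sets that spread widely within a label. Descriptions and plots used Python 3.11.15, numpy 2.4.6, pandas 2.3.3 and matplotlib 3.10.9. Alternatives were other gap limits, the difference of middle arrays, a filter on low values (12169 probe sets with 3 or more arrays at a log2 value of 4 or above), quantile normalization, centring on array medians, genes in place of probe sets, no minimum fold, trend and robust eBayes, the 6 arrays alone, the replicate number and the title wording as blocks, the methods' t-test, and each array left out.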

Additional observations from a re-analysis of the deposited data

How the results depend on the processing

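The number of probe sets set apart depended on the limit. With the replicate 3 arrays higher it was 84, and 2998 with any gap above 0, 18 with a gap of at least 2, 218 with a difference between middle arrays of at least 1, and 53 counted as genes. With these arrays lower it was 48, and 2588, 17, 156 and 32 in the same order. The filter on low values gave 77 and 46, centring on array medians 86 and 48, and quantile normalization 84 and 52, of which 83 and 48 were among the 84 and 48. Leaving out each array in turn gave 90 to 113 higher and 50 to 86 lower. Leaving out both arrays that stood apart in their sets, an alternative chosen after seeing the data, gave 139 and 105. Of the gaps of the 20 genes with the widest gaps, 147 values under other normalizations or with an array left out moved by less than the spread within sets and 13 by more. No gap changed its direction. The 13 all came from leaving out an array, where by construction a gap can only widen or stay.

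The labelled difference of DMIOA+20(S) and DMIOA had 0 calls under every alternative run, by label and within sets, leaving out each array included (0 to 0), except for the methods' t-test without adjustment, which gave 5. Without the 3 arrays that stood apart, and for the difference between sets with trend and robust eBayes, both chosen after seeing the data, there were 0 as well. The replicate number as a block gave 0 calls by label and 0 within sets, with 1299 and 2592 probe sets at an unadjusted p under 0.05, and the title wording as a block 0, with 1291. Same-numbered arrays deviated from their label means with correlations of -0.557 to 0.704, so the numbers were not taken to pair the arrays.

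GCRMA values near the floor carry little information, and with 3 arrays per set a gap has no error of its own.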
